A study of Homo sapiens with 3 samples.

Results

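The genes described here are the core of the transforming growth factor beta (TGF-beta) pathway: the ligands TGFB1 and TGFB2, the receptors TGFBR1, TGFBR2 and TGFBR3, the signal transducers SMAD2, SMAD3 and SMAD4, and the inhibitors SMAD7 and SKIL. They were chosen by name, and each of the 10 matched 1 of the 50868 genes in the count tables. All 10 had enough counts to be tested among 17287 genes. The cells were NCI-H23, a human lung adenocarcinoma line, in 3 mRNA libraries: 1 from cells transfected with control siRNA and 2 from cells transfected with siRNA against USP16, which encodes a histone H2A deubiquitinase. The comparison asks which transcript levels differ when USP16 is knocked down. The labels number the knockdown libraries 1 and 2 and leave it unsaid whether these are 2 siRNAs or 2 cultures, so the spread behind each p-value may be a technical one.

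TGF-beta ligands are secreted in a latent form and, once released, bind TGFBR2, a serine/threonine kinase receptor that recruits and activates TGFBR1. Activated TGFBR1 phosphorylates SMAD2 and SMAD3, which join SMAD4, enter the nucleus and bind DNA together with partner factors, SMAD3 and SMAD4 through a short CAGAC element. SMAD7 and SKIL are both transcribed in response to the signal and both act against it. In epithelial cells the pathway is known for growth arrest, for induction of matrix genes and for epithelial-mesenchymal transition.

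Libraries held between 13956382 and 15071179 counts, and all levels below are CPM (each count over the library's scaled total), with totals scaled by trimmed means of M-values. USP16 was at 47.5 CPM in the control, 7.69 in knockdown library 1 and 15.8 in knockdown library 2. Its residual level was therefore lower in library 1 than in library 2. Of the markers used to check the cells, the 5 epithelial ones summed to 237 to 403 CPM and the 3 mesenchymal ones, led by vimentin, to 532 to 1525 CPM. The mesenchymal sum was lowest in knockdown library 2 through vimentin alone, at 1507, 1361 and 512 CPM in the control and libraries 1 and 2. FN1 was highest in library 2, at 17.3, 16.5 and 20.2 CPM, and CDH2 was at most 1.62. Within the epithelial sum, EPCAM was at 2.85, 11.4 and 14.9 CPM and CDH1 at 10.7, 2.75 and 5.98. Of the defining markers of lung alveolar cells, the surfactant genes SFTPB and SFTPC had 0 counts in all 3 libraries, and NKX2-1 had 4 to 10 counts. The 4 fibroblast markers summed to 73.5, 69.9 and 55.8 CPM in the control and knockdown libraries 1 and 2, mostly from the collagen gene COL1A1. The 3 endothelial markers summed to at most 0.772 CPM. The 4 immune markers summed to 5.93, 10.2 and 8.42 CPM, nearly all from the macrophage and lysosome gene CD68, and of these CD3E was at 0 throughout. The part of these markers in the values below was not tested.

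The promoters of 4 of the genes are shown because TGFBR1 and SMAD3 had the lowest mean changes of the 10 and because SMAD7 and SKIL are the feedback genes of the pathway. Each is the 300-base window from 250 bases before to 50 bases after the first start listed by RefSeq on GRCh38.p14, printed 5′ to 3′ on the gene's own strand, with every CAGAC or its reverse complement GTCTG in capitals. The windows are chr9:99104863-99105162 on the plus strand for TGFBR1, chr15:67065352-67065651 on the plus strand for SMAD3, chr18:48950916-48951215 on the minus strand for SMAD7 and chr3:170357465-170357764 on the plus strand for SKIL.
TGFBR1: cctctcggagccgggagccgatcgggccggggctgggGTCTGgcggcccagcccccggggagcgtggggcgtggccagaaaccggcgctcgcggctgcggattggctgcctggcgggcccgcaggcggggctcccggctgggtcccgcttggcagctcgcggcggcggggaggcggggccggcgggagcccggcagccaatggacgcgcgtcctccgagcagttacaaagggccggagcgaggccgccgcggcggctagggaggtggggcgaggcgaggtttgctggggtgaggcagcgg
SMAD3: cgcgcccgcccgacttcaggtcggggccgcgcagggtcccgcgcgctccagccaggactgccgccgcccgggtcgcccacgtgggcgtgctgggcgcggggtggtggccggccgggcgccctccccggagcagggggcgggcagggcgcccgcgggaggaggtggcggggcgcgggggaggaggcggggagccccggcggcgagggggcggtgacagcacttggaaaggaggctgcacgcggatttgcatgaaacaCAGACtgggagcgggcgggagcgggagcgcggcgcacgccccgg
SMAD7: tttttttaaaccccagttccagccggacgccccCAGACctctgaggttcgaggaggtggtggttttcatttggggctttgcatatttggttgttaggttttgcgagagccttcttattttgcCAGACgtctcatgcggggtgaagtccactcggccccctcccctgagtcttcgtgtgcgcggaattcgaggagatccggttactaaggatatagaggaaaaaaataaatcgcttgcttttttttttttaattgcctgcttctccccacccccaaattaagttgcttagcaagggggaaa
SKIL: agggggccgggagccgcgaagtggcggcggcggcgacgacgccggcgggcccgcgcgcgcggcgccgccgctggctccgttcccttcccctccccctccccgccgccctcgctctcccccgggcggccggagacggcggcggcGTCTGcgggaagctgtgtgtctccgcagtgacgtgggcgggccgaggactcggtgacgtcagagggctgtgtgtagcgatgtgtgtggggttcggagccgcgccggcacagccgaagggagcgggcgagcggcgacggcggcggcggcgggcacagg
SMAD7 held 2 matches to CAGAC, and TGFBR1, SMAD3 and SKIL held 1 each. Among all 10 genes, 5 windows had a match (TGFB2 is the other one), against 45.0% of the 27305 first-listed promoters of this length. The longer palindrome GTCTAGAC, which holds neither CAGAC nor its reverse complement, was in none of the 10 windows and in 0.201% of all promoters. GGGCGG, the GC box, read on both strands, was in 6 of the 10 windows and in 44.6% of all. The TGFBR1, SMAD3 and SKIL windows were 78.7%, 80.3% and 79.0% G or C. That of SMAD7 was 48.3%, and the median of all promoters was 58.3%. These are matches of letters in 1 window per gene, and TGFBR1, SMAD3 and SMAD7 have 8, 5 and 3 listed starts.

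Across the 10 genes, 7 had lower and 2 had higher levels after USP16 knockdown in both libraries, and TGFB1 went opposite ways. Of all genes tested, 33.5% were lower in both, 33.4% higher in both and 33.2% opposite. In bulk RNA, fewer cells that express a gene and less RNA per cell cannot be told apart. The median of the mean log2 changes was -0.46 over the 10 genes and -0.02 over all genes tested. By library, the medians of the 10 were -0.28 and -0.52, against 0.00 and 0.00 for all genes. The 2 libraries share their single control, so a control value that is high or low by chance moves both changes the same way.

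No gene of the 10 passed an adjusted p of 0.05 in the quasi-likelihood test of edgeR, where 0.0174% of all genes passed, and none passed with DESeq2. Both tools gave an unadjusted p under 0.05 for 2 of the 10, SMAD3 and TGFBR1, where edgeR gave one for 4.88% of all genes. No gene of the 10 was at least 2-fold lower or higher in both libraries, while 1.68% of all genes were 2-fold lower and 3.75% 2-fold higher. SMAD3 missed this size narrowly, with a ratio of 0.510 in library 1. With 1 control library the test has 1 residual degree of freedom and takes the control to vary like the knockdown libraries. USP16 itself, at ratios of 0.162 and 0.332, did not pass either (adjusted p = 0.561 in edgeR and 0.339 in DESeq2). It passed only without a filter on low counts (edgeR, adjusted p = 0.0188). The lack of calls among the 10 genes therefore does not show that their levels were unchanged.

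**Figure D1:**
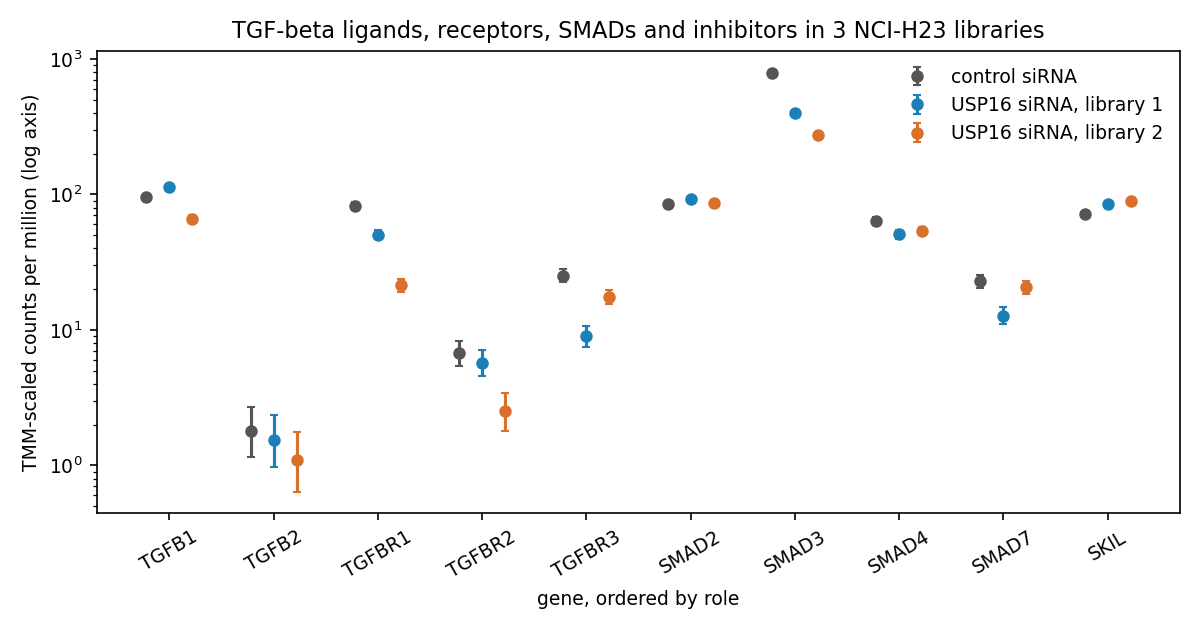
Level of each gene in each library, in TMM-scaled CPM on a log axis, with bars for the exact Poisson 95% interval, which covers counting error only. SMAD3 and TGFBR1 step down from the control (grey) to library 1 (blue) to library 2 (orange), from 789 to 402 and 272 CPM and from 82.2 to 50.5 and 21.4 CPM, while SMAD2 stays between 84.8 and 92.5.

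TGFB1, the ligand form made by most cell types, had 1268 counts in the control, 1605 in knockdown library 1 and 1025 in knockdown library 2. These are 95.2, 113 and 65.9 CPM, so the control lay between the knockdown libraries. The log2 changes were 0.25 and -0.53, with a mean of -0.14 ± 0.55 (SD, n = 2; edgeR, adjusted p = 0.999). TGFB1 lies on chromosome 19 at 41301587 to 41353911 of hg38. It shares 215 exonic bases, 6.64% of its own, with HNRNPUL1 on the opposite strand, whose reads may not be separable. HNRNPUL1 had 4742, 5160 and 4368 counts, also highest in library 1 and lowest in library 2. Its part in the TGFB1 counts was not tested.

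TGFB2, the other ligand, had 24, 22 and 17 counts, or 1.80, 1.55 and 1.09 CPM. Its ratios to the control, 0.861 (exact 95% interval 0.460 to 1.60) and 0.606 (0.306 to 1.18), both had intervals that include 1. A difference in TGFB2 was not detectable at this depth. TGFB2-OT1, a noncoding gene that covers 26.6% of its exonic bases on the same strand, had 2, 2 and 1 counts.

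TGFBR1, the type I receptor kinase that phosphorylates SMAD2 and SMAD3, lies on chromosome 9 at 99104038 to 99154192 of hg38 and had 1094, 716 and 333 counts. The control level of 82.2 CPM (exact Poisson 95% interval 77.4 to 87.2) stood above 50.5 in library 1 (46.9 to 54.4) and 21.4 in library 2 (19.2 to 23.8). Both knockdown libraries were below the control, as for 33.5% of all genes tested. TGFBR1 was lower in library 2, while USP16, TGFBR3 and SMAD7 were lower in library 1. Whether any of the 10 genes follows the level of USP16 was not tested. Log2 changes were -0.70 and -1.93, with a mean of -1.32 ± 0.87 (SD, n = 2). The edgeR test gave an adjusted p of 0.999 (0.0338 unadjusted). This was the lowest mean of the 10, with 2.0% of all genes tested lower still.

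TGFBR2, the type II receptor that binds the ligand first, had 90, 81 and 39 counts. Its levels of 6.76, 5.71 and 2.51 CPM were low throughout. Only library 2 was below the control beyond counting error, with a ratio of 0.371 (0.248 to 0.546), whereas library 1 gave 0.845 (0.618 to 1.15). The mean log2 change was -0.81 ± 0.81 (SD, n = 2; edgeR, adjusted p = 0.999).

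TGFBR3, or betaglycan, a coreceptor that presents ligand to TGFBR2, had 334, 128 and 272 counts, or 25.1, 9.03 and 17.5 CPM. Both knockdown libraries were below the control, and the order of the knockdown libraries was the reverse of that of TGFBR1 and TGFBR2. Log2 changes were -1.46 and -0.52 (mean -0.99 ± 0.67, SD, n = 2; edgeR, adjusted p = 0.999). TGFBR1 and TGFBR2 were at least 2-fold apart between the knockdown libraries (log2 differences of -1.23 and -1.15, library 2 minus library 1), as were 15.7% of all genes. The ratio of library 2 to library 1 was 0.424 (0.371 to 0.483) for TGFBR1, 0.439 (0.292 to 0.651) for TGFBR2 and 1.94 (1.56 to 2.41) for TGFBR3.

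**Figure D2:**
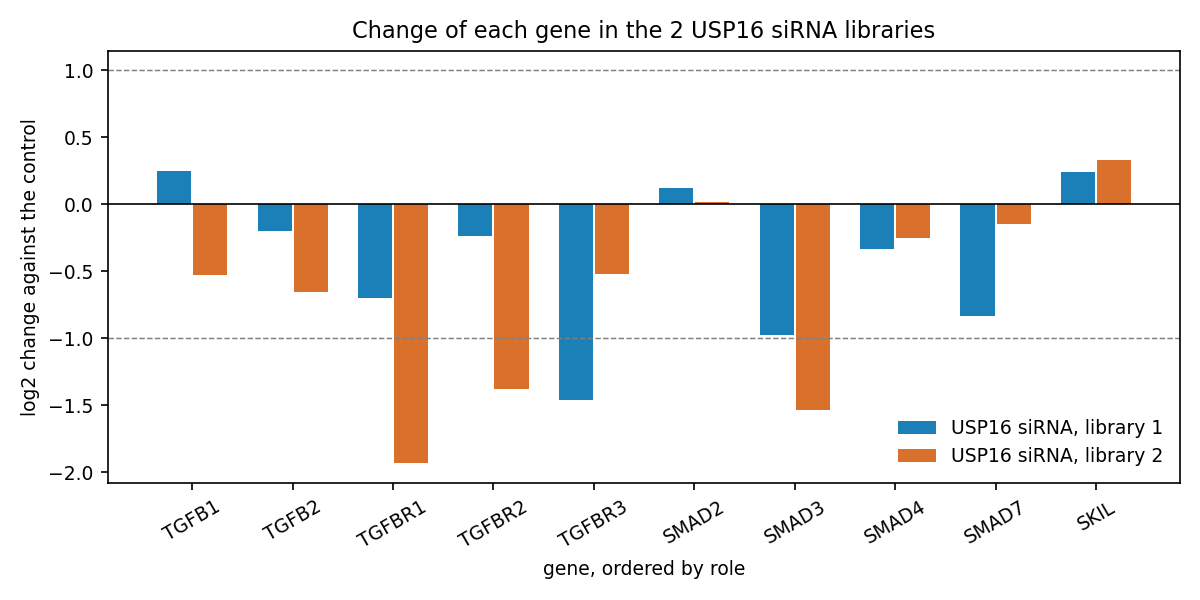
Log2 change of each gene against the control in knockdown library 1 (blue) and library 2 (orange), with dashed lines at a 2-fold change. The receptor bars differ in length between the libraries, and TGFB1 points in opposite directions, at 0.25 and -0.53.

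SMAD3, a receptor-activated SMAD that binds DNA directly, lies on chromosome 15 at 67063763 to 67195195 of hg38 and had 10504, 5698 and 4237 counts. It was at 789 CPM in the control (774 to 804), 402 in library 1 (392 to 413) and 272 in library 2 (264 to 281). Being below the control in both libraries was shared with 33.5% of all genes tested. The ratios to the control were 0.510 (0.493 to 0.526) and 0.345 (0.333 to 0.358). Log2 changes were -0.97 and -1.53, with a mean of -1.25 ± 0.40 (SD, n = 2). The edgeR test gave an adjusted p of 0.822 (0.00705 unadjusted). The adjusted p ranged from 0.197 without a filter on low counts to 1.00 with DESeq2 or with a minimum mean of 100 counts.

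SMAD2, the other receptor-activated SMAD of this branch, had 1129, 1311 and 1338 counts, or 84.8, 92.5 and 86.0 CPM. Its log2 changes were 0.13 and 0.02, with a mean of 0.07 ± 0.07 (SD, n = 2; edgeR, adjusted p = 0.999). The ratio of SMAD3 to SMAD2 counts, which needs no scaling between libraries, was 9.30 in the control, 4.35 in library 1 and 3.17 in library 2. It was 46.7% (42.8 to 50.9) and 34.0% (31.2 to 37.2) of its control value, with intervals that cover counting error only. SMAD3 thus differed from the control by more than SMAD2 did in each knockdown library.

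SMAD4, the common partner of all receptor-activated SMADs, had 851, 719 and 834 counts, or 63.9, 50.7 and 53.6 CPM. The log2 changes of -0.33 and -0.25 were close to each other, with a mean of -0.29 ± 0.06 (SD, n = 2; edgeR, adjusted p = 0.999). Against SMAD4 the ratio of SMAD3 counts was 64.2% (57.8 to 71.4) and 41.2% (37.1 to 45.6) of its control value. SMAD4 shares 967 exonic bases with the same-strand gene AC091551.1, which had 11, 5 and 10 counts.

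SMAD7, the inhibitory SMAD that competes for the receptor and brings ubiquitin ligases to it, had 305, 181 and 321 counts. The levels were 22.9, 12.8 and 20.6 CPM, so library 1 stood apart and library 2 was near the control, with a ratio of 0.901 (0.768 to 1.06). The mean log2 change was -0.49 ± 0.49 (SD, n = 2; edgeR, adjusted p = 0.999).

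SKIL, which encodes SnoN, a corepressor that binds SMAD complexes, had 948, 1195 and 1394 counts. It was at 71.2, 84.3 and 89.6 CPM, higher in both knockdown libraries, with ratios of 1.18 (1.09 to 1.29) and 1.26 (1.16 to 1.37). The mean log2 change was 0.29 ± 0.06 (SD, n = 2; edgeR, adjusted p = 0.999). The ratio of SKIL to SMAD7 counts was 3.11 in the control, 6.60 in library 1 and 4.34 in library 2.

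SMAD2, SMAD7 and SMAD4 lie near each other on chromosome 18 of hg38, at 47808957 to 47931146, 48919853 to 48952052 and 51028394 to 51085045. Their mean log2 changes of 0.07, -0.49 and -0.29 did not share a sign, and each was smaller in size than that of SMAD3 on chromosome 15.

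**Figure D3:**
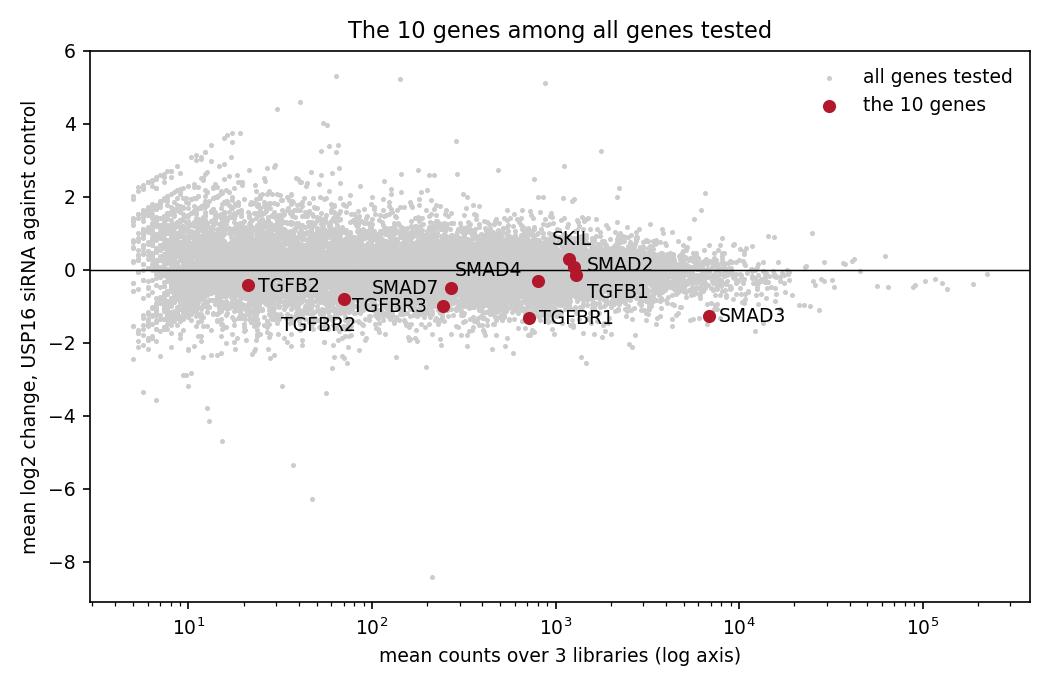
Mean log2 change of USP16 siRNA against control for all 17287 genes tested (grey) and the 10 TGF-beta genes (red), against the mean count on a log axis. SMAD3, with a mean of 6813 counts, lies at -1.25 near the lower edge of genes of similar abundance, and SMAD2, SMAD4, TGFB1 and SKIL lie within the dense band around 0.

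SMAD3 also dominated the counts of the group. The 10 genes together were at 1243 CPM in the control, 822 in library 1 and 631 in library 2, and SMAD3 took 63.5%, 48.9% and 43.2% of their counts. Without SMAD3 the sum was 454, 420 and 358 CPM. Most of the lower summed level in each knockdown library was therefore in SMAD3.

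Levels of different genes were compared per length, as scaled CPM per kilobase of annotated exon. SMAD3 was highest in each library, at 86.6, 44.1 and 29.9, followed by TGFB1 at 29.4, 35.0 and 20.3. TGFB2 was lowest in each library, at 0.350, 0.301 and 0.212, preceded over the 3 libraries by TGFBR2 at 1.44, 1.21 and 0.533. Ranges over the 3 libraries overlapped between neighbours in the order except between TGFB1 and SKIL and between TGFBR2 and TGFB2, so the places from SKIL to TGFBR2 (SKIL, TGFBR1, SMAD4, SMAD7, SMAD2, TGFBR3, TGFBR2) do not separate one neighbour from the next. TGFBR1 was in place 3 in the control, 4 in library 1 and 6 in library 2. Its level per length was 12.0, 7.38 and 3.13.

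**Figure D4:**
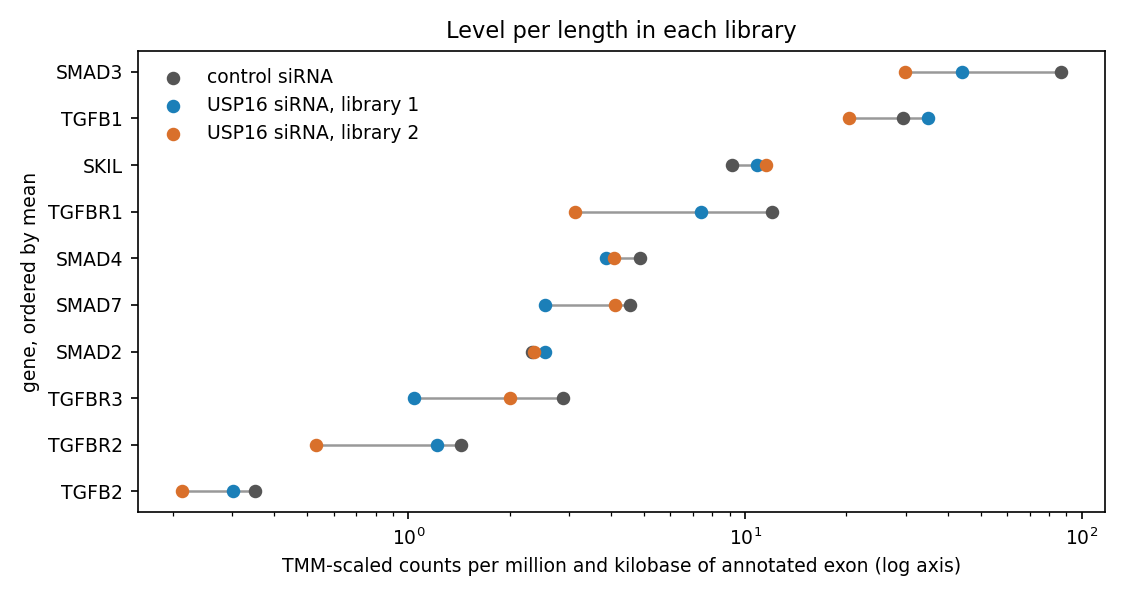
Scaled CPM per kilobase of annotated exon for each gene in each library, on a log axis, with a line over the range of the 3 libraries. SMAD3 and TGFB1 are highest and TGFB2 lowest, and TGFBR1 spans the widest range relative to its level, from 3.13 to 12.0.

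The annotated exons of SMAD2 add up to 36366 bases, because of 1 transcript with a very long end, so its place depends on the length used. With the median length of full-length coding transcripts, 10445 bases, SMAD2 was at 8.12, 8.86 and 8.24, and SMAD3, with a median of 1530 bases, at 516, 263 and 178. By that length SMAD3 was again highest and TGFBR2 and TGFB2 lowest, and 6 of the 10 genes kept their place.

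The 3 genes whose pair of log2 changes lay nearest to that of TGFBR1, among 10645 of the 11236 genes whose mean was 100 counts or more, leaving out symbols with a hyphen, a dot, LOC or orf (readthrough, clone-based and provisional names), were PPP1R3D, SLC45A1 and CBLL1. Their Euclidean distances were 0.0593, 0.0960 and 0.0960 log2 units over the 2 changes, and 19 genes lay within 0.2. PPP1R3D had 293, 199 and 87 counts. With 3 libraries such a likeness rests on 2 values per gene.

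Other genes of the pathway were read from a list of 73 by role, of which 65 could be tested. Of these, 28 were lower and 18 higher in both libraries, and 19 were opposite, against 33.5%, 33.4% and 33.2% of all genes tested. The median of their mean log2 changes was -0.14. None passed the adjusted p in edgeR, where 9 had an unadjusted p under 0.05, against 4.88% of all genes. With DESeq2 1 passed, the stress cytokine GDF15 (adjusted p = 0.00487), which edgeR also called when low counts were kept (adjusted p = 1.2e-05). Of all 17287 genes, DESeq2 called 8 higher and 6 lower.

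Among 11 further genes tested that were listed as ligands, 5 were lower and 2 higher in both, against 33.5% and 33.4% of all genes tested. They include BMP1, which encodes a protease rather than a ligand and had 371, 426 and 260 counts. TGFB3, the remaining TGF-beta isoform, had 291, 142 and 51 counts, with log2 changes of -1.11 and -2.69 (edgeR, adjusted p = 0.984). INHBA, the subunit of activin A, which signals through the same SMAD2 and SMAD3, had 64, 354 and 214 counts, or 4.81, 25.0 and 13.8 CPM (2.34 and 1.49; edgeR, adjusted p = 0.822). The control was below both knockdown libraries for INHBA and above both for TGFB3. GDF11, another ligand of the activin receptors, had 285, 278 and 58 counts, so only library 2 stood apart. GDF15, a distant member of the superfamily, had log2 changes of -2.18 and -2.92 (edgeR, adjusted p = 0.178).

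Of 12 genes of latency and activation, 7 were lower and 3 higher in both, against 33.5% and 33.4% of all genes tested. Among those higher, ITGB6 had 0, 7 and 11 counts and LRRC32 had 3, 6 and 15, both few. The latent binding proteins LTBP2 and LTBP3 were at -0.31 and -1.63, and at -0.56 and -0.80. FURIN, the protease that cleaves the ligand precursor, had 1869, 1146 and 1225 counts, with log2 changes of -0.79 and -0.83. FBN1, the microfibril protein to which latent complexes attach, had 683, 1591 and 1577 counts and was higher in both, at 1.13 and 0.98. The median of the 12 was -0.40, also with ITGB6, which had 0 counts in the control, set to its bound against 3 counts.

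Of the 10 other receptors tested, 4 were lower and 1 higher in both and 5 were opposite, with a median of -0.13. The shares over all genes tested, for these receptors and the SMADs below, were 33.5%, 33.4% and 33.2%. By library the medians of the other receptors were -0.29 and 0.06, against -0.28 and -0.52 for the 10 TGF-beta genes. Only in library 2 were the other receptors nearer to 0. ACVR1, a type I receptor used by bone morphogenetic proteins, was at -0.29 and -1.15, and the activin receptors ACVR2B and ACVR2A at -0.80 and -0.25, and at -0.68 and 0.10. BMPR2 had 1997, 1500 and 2566 counts. Of the 4 other SMADs, 2 were lower and 2 higher in both: SMAD5 was at 0.09 and 0.04, SMAD6 at -0.29 and -0.20, and SMAD1 at -0.01 and -0.44. SMAD9, which falls outside the rule for named genes and was added after its values were seen, had 60, 83 and 128 counts (0.37 and 0.85).

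Cofactors and regulators, 28 in number, divided evenly, with 10 higher and 10 lower in both, against 33.4% and 33.5% of all genes tested. TGIF2, a corepressor of SMAD complexes, had 270, 608 and 1079 counts (1.08 and 1.77; edgeR, adjusted p = 0.879). SMURF1, a ubiquitin ligase that works with SMAD7, had 1566, 964 and 874 counts (-0.79 and -1.06). FSTL3, which binds and blocks activin, was at 1.08 and 0.72. FSTL1, a secreted glycoprotein, had 931, 554 and 104 counts, the low value being that of library 2.

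**Figure D5:**
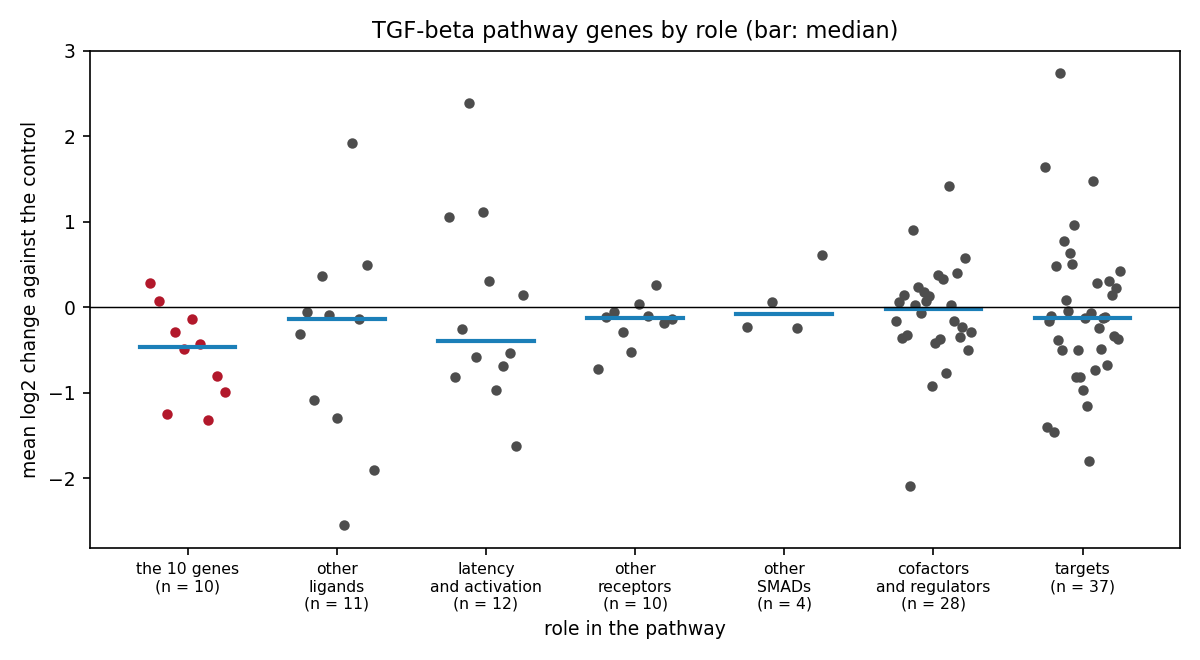
Mean log2 change against the control for each gene tested, by role, with a blue bar at the median. The 10 genes (red) have a median of -0.46 and the latency and activation genes one of -0.40. The medians are -0.14 for other ligands, -0.13 for other receptors and -0.08 for other SMADs. The cofactors and the targets have medians of -0.02 and -0.12.

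The 37 target genes tested include SMAD7 and SKIL and 4 genes of the other lists. They are targets of SMAD2 and SMAD3 or of SMAD1 and SMAD5, which were not counted apart. Of the 37, 16 were lower and 9 higher in both, and 12 were opposite, against 33.5%, 33.4% and 33.2% of all genes tested. The median of the 37 was -0.12. None passed in edgeR, where 7 had an unadjusted p under 0.05, against 4.88% of all genes. With DESeq2 1 passed, the type IV collagen gene COL4A1 (adjusted p = 0.0207), which edgeR also called when low counts were kept (adjusted p = 0.0174). COL4A1 was at 2.76 and 2.71. ACTA2, smooth muscle actin, had 47, 114 and 249 counts, and RHOB, a small GTPase, had 386, 1233 and 1172, both higher in both libraries. CDKN1A, the p21 inhibitor induced in growth arrest, was at -1.98 and -0.95. Among targets named after their values were seen, CTGF, a matricellular protein, had 1050, 475 and 1437 counts, and JUNB, a transcription factor of the AP-1 family, had 4566, 2254 and 3686. Both were lowest in library 1, and in library 2 CTGF was above the control and JUNB below it.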

How the data were processed

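The authors deposited 1 file per library with raw counts per gene, whole numbers that sum to a different total in each of the 3 libraries. HISAT2 2.0.4, StringTie 1.3.0 and hg38 are named, per the submitters' processing notes, with no roles. How reads were counted, with which annotation and whether by strand, is not given in the sources used here. The second knockdown library carries the number 6 in its count column and 2 in its label, and was used as labelled.

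Genes were filtered with filterByExpr, scaled by TMM and tested with the quasi-likelihood test of edgeR 4.0.16 (R 4.3.3), with Benjamini-Hochberg adjustment over all 17287 genes; the code was tested on simulated data. Log2 changes use a prior count of 2. The SD over the knockdown libraries leaves out the variation of the control. Intervals are 95% exact Poisson or binomial intervals and cover counting error only. Lengths and overlaps are from GENCODE 29 and promoters from RefSeq, for which all 10 genes matched. DESeq2 1.42.0 was an alternative.

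The genes, lists and tests were chosen with earlier results of these data known. Named besides the 10 genes and USP16 were up to 4 genes per role with the largest mean change and a mean of at least 100 counts, and the 3 genes most like the most changed of the 10. CTGF, JUNB, SMAD9, ITGB6, LRRC32 and BMP1 were named outside this rule, after their values were seen. Overlapping genes and cell markers are named as such. Some genes of the lists are not reported here by name.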

Additional observations from a re-analysis of the deposited data

How the results depend on the processing

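Alternatives were another test, scaling, filter or prior count. Over 48 pairs of a gene and an alternative, the mean log2 change of each of the 10 genes kept its sign, and none passed an adjusted p of 0.05. The prior count of 10 enters the log2 changes only, so its p-values repeat those of the main edgeR test. Over all genes, edgeR called 0 higher and 3 lower. DESeq2 called 8 and 6, no filter on low counts 40 and 30, and a minimum mean of 100 counts left 1 lower. Leaving out 1 knockdown library left 1 library against 1 and no test. Of the 10 genes, 2 to 3 were then higher and 7 to 8 lower. The pathway list had 25 to 30 higher and 35 to 40 lower, and the targets 13 to 17 and 20 to 24. With 1 knockdown library no gene can be opposite, so these counts do not compare with the shares in both libraries. The share over all genes was not counted for 1 library. With all libraries kept, the median change of all genes was 0.002 in library 1 and -0.003 in library 2. TGFB1 ranged from -0.53 to 0.25 and TGFBR1 from -1.93 to -0.70. By the median length of coding transcripts, an alternative chosen after seeing the data, 6 of the 10 genes held the same place by level. No paired analysis was possible because both knockdown libraries share a single control library. The low counts of TGFB2 and TGFBR2 limit what can be seen there.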
